A study of Homo sapiens with 9 samples.

Results

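The 48 mitosis and kinetochore genes described here encode regulators of the step from G2 into mitosis, parts of the kinetochore, spindle checkpoint proteins, spindle motors and cytokinesis proteins. They were chosen by name from these functions, with earlier results of these data known. All 48 were found among the 17637 genes of the count table, and all 48 were among the 15309 genes that passed the filter on low counts and were tested. RNA was read in 9 libraries of KOPTK1, an established line from a human acute lymphoblastic leukaemia of T cells (T-ALL), so that every group comes from 1 cell line, and the labels give the genotype of all of them as WT. The shDHX15_MYC group (3 libraries, titled shDHX15+MYC) carried a lentiviral short hairpin RNA against the DEAH-box RNA helicase DHX15 together with the ectopic coding region of MYC. The shDHX15 group (3 libraries) carried the hairpin against DHX15 without added MYC, and the shControl group (3 libraries, titled shcControl) a control hairpin. The study asked whether MYC lies downstream of DHX15.

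Mitosis is driven by the kinase CDK1 bound to cyclins A and B, which CDC25 phosphatases switch on, while Aurora and Polo-like kinases build the spindle. Kinetochores tie chromosomes to spindle microtubules, the spindle checkpoint holds back the anaphase-promoting complex until all are attached, and kinesins, anillin and ECT2 then divide the cell. Most of these genes are transcribed late in the cell cycle. Their promoters are known for CCAAT boxes, bound by NF-Y, and for the cell cycle homology region (CHR), bound by the MuvB core of the repressor complex DREAM and of the activators B-MYB and FOXM1. MYC, with MAX, binds the E-box CACGTG.

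The promoters are shown here because the genes are known as targets of shared regulators. RefSeq windows (GRCh38.p14) from 250 bases before to 50 bases after the start site were found for 40 of the 48 genes, and not for TPX2, FOXM1, UBE2C, BIRC5, TTK, AURKA, KNTC1 and BUB3; 7 genes had several windows. Each line below gives the 120 bases before the start site, 5′ to 3′ on the gene's strand. Capitals mark matches on either strand to the CHR (TTTGAA or TTCGAA, or their reverse TTCAAA or TTCGAA) or to CCAAT (reverse ATTGG); in MKI67 a CHR and a CCAAT match overlap. CCNB2 and PLK1 show the arrangement of CCAAT followed by a CHR near the start; CENPE and CDC20 are the genes with the highest and the lowest change in the knockdown; KIF20A and KIF20B are related motors whose RNAs moved apart; MKI67 was higher with MYC.
CCNB2 (chr15:59105026-59105145, plus strand): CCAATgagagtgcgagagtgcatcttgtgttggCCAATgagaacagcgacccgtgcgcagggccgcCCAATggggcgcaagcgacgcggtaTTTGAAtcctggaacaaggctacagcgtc
PLK1 (chr16:23678769-23678888, plus strand): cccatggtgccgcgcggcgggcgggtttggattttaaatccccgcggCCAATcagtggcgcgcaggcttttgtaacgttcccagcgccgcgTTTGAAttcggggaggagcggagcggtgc
CENPE (chr4:103198344-103198463, minus strand): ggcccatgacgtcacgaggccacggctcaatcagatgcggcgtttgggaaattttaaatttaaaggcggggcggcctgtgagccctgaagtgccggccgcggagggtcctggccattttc
CDC20 (chr1:43358861-43358980, plus strand): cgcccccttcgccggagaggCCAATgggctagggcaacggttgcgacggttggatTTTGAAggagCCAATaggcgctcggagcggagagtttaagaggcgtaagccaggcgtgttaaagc
KIF20A (chr5:138178992-138179111, plus strand): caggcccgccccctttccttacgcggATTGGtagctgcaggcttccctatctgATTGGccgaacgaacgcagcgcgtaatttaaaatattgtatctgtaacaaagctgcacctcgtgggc
KIF20B (chr10:89701470-89701589, plus strand): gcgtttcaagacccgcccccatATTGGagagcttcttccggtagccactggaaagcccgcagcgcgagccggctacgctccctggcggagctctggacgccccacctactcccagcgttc
MKI67 (chr10:128126424-128126543, minus strand): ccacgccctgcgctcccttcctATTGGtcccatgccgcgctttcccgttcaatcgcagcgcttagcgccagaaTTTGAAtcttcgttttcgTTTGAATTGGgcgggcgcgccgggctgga

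The CHR letters were common among these genes. They stood in at least 1 window of 33 of the 40 genes (82.5%), against 19.5% of 27305 genes with a window; counted by window, these were 36 of 52 windows (69.2%) against 16.4% of 35116. CCAAT stood in 31 of the 40 genes (77.5%), against 39.7% of all, and both motifs in 26 (65%), against 7.85%. The E-box stood in 5 of the 40 (12.5%), against 8.77%. In the first listed window of each gene, 24 of the 31 genes with a CHR had one within 50 bases of the start site, and 22 of the 28 with CCAAT had one from 100 to 50 bases before it. The printed bases of CENPE held none of these motifs; its window had an E-box farther upstream. KIF20B has its CHR matches after the start site. A match is a description of letters and not a site of binding.

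**Figure D1:**
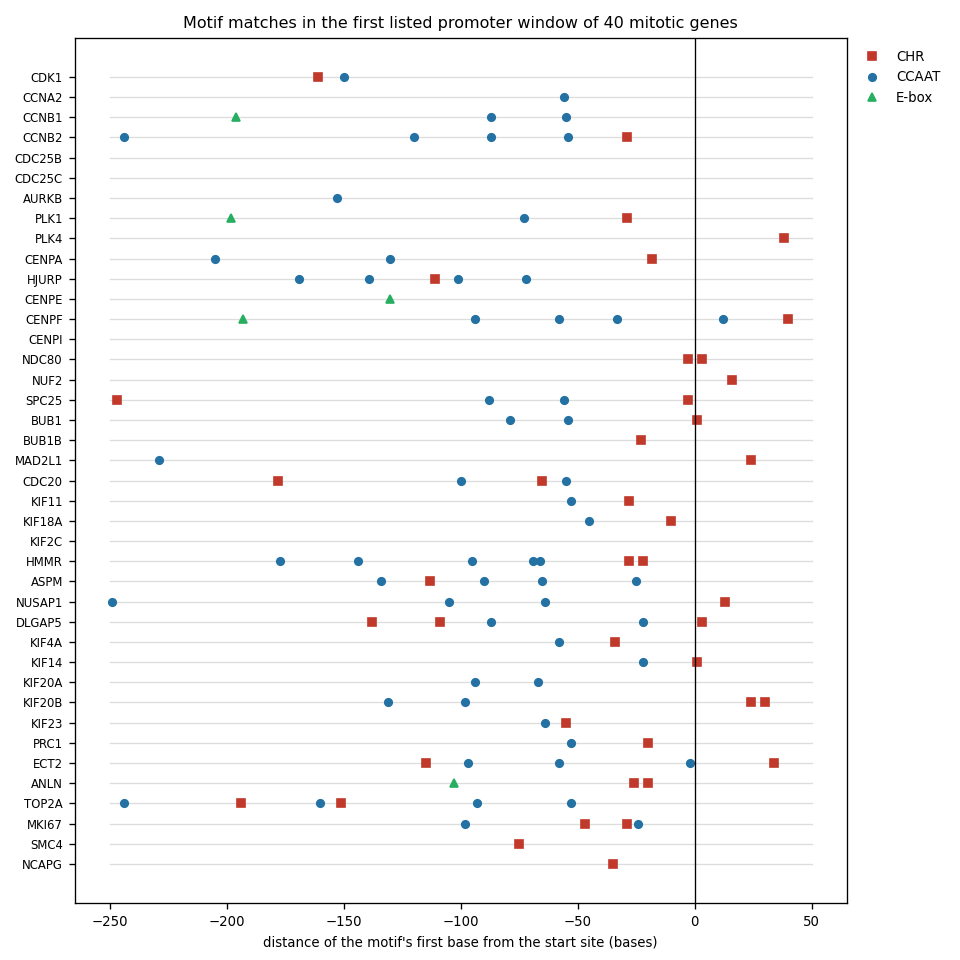
Positions of motif matches in the first listed promoter window of 40 mitotic genes, in bases from the start site (vertical line at 0). Red squares are CHR, blue circles CCAAT and green triangles the E-box; in 24 of the genes a CHR lies within 50 bases of the start, and the E-box appears in 5.

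DHX15 was lower in every library with its hairpin than in any control library, and MYC was far higher in every library with added MYC. DHX15 RNA was at 196.8, 196.4 and 192.2 TMM-scaled CPM (counts over the scaled library total) in shDHX15_MYC, 182.1, 162 and 155.5 in shDHX15 and 284.3, 278.3 and 278.4 in shControl. Its log2 fold change was -0.75 in the knockdown and -0.52 for shDHX15_MYC against shControl (edgeR adjusted p = 1.04e-09 and 4.62e-09). For shDHX15_MYC against shDHX15 it was 0.23 (edgeR adjusted p = 0.000124), so these groups differed in DHX15 RNA as well as in MYC. MYC RNA averaged 7098 ± 153 CPM in shDHX15_MYC, 86.9 ± 3.78 in shDHX15 and 109.3 ± 0.603 in shControl (SD, n = 3). Total counts ran from 42134302 to 59688062 per library. Replicate 1 of shDHX15 stood apart: its counts differed from those of the other 2 shDHX15 libraries with chi-square values per degree of freedom of 18 and 17.1, compared with 4.45 between those 2 and 2.73 to 3.23 within the other groups. Mitochondrially encoded genes took 6.59% to 6.66% of the counts in shDHX15_MYC, 3.67% to 3.87% in shDHX15 and 3.87% to 3.99% in shControl. Nothing in the labels tells whether replicates came from separate cultures; a p-value here measures the spread of these libraries alone, which may be technical.

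With DHX15 knocked down, most of the 48 genes stood higher than in control cells, and with MYC added most stood lower than in either other group. Summed over the 48 genes, RNA was at 5496, 5523 and 5507 CPM in shDHX15_MYC, 8480, 8212 and 8195 in shDHX15 and 7290, 7230 and 7273 in shControl. The 3 groups did not overlap in this sum: it was highest in every shDHX15 library and lowest in every shDHX15_MYC library. Each gene was tested with edgeR's quasi-likelihood test and called at a Benjamini-Hochberg adjusted p under 0.05 over all 15309 genes. In bulk RNA, fewer cells in mitosis and less of an RNA per cell cannot be told apart. CPM are also shares of a library's counts, so they do not show whether total RNA per cell differed between groups.

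In shDHX15 against shControl, 29 of the 48 genes rose and 3 fell, and 16 were not called. Over all 15309 genes, 22% were called higher and 23% lower; among the 10328 better expressed genes (mean log2 CPM at least 3, a level that all 48 reach), 28.2% were called higher and 27.6% lower. The median log2 fold change of the 48 was 0.21, against -0.005 over all genes. Most changes were small, and only CENPE passed 2-fold. Without replicate 1 of shDHX15, CCNB2, PLK1, CENPA and HJURP were also called higher and CCNB1, BIRC5 and SPC25 also lower, and KNTC1 was no longer called. In 37 of the 48 the libraries of the groups did not overlap, 33 with shDHX15 above shControl and 4 below, against a background of 51.1% of all genes and 60.7% of the better expressed ones.

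In shDHX15_MYC against shDHX15, 43 genes fell, 3 rose and 2 were not called. Over all genes 42.6% were called lower and 42.1% higher, and 54.1% lower and 33.6% higher among the better expressed ones. The median of the 48 was -0.69, against 0.006 over all genes and -0.20 over the better expressed ones. Of the 48, 10 fell more than 2-fold. The share of all genes past 2-fold was not counted in any comparison, so such counts have no background here. The libraries did not overlap in 46 of the 48, against 85% of all genes and 87.5% of the better expressed ones. In shDHX15_MYC against shControl, 35 fell, 8 rose and 5 were not called, with a median of -0.49; over all genes 42.5% were called lower and 42% higher, and among the better expressed ones 53.9% lower and 34.2% higher. In this comparison 6 genes fell and 1 rose more than 2-fold, and the libraries did not overlap in 44 of the 48, against 87.2% of all genes and 90.7% of the better expressed ones. The comparisons share libraries, so their values are given side by side and are not independent.

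The size of the changes with MYC moved with the scaling. With total counts in place of TMM factors, the median of all genes moved to 0.20 in shDHX15_MYC against shDHX15 and to 0.28 against shControl, and that of the 48 genes moved with it, to -0.49 and -0.23. Relative to the median of all genes, the median of the 48 stood at -0.69 in the first of these comparisons and -0.51 in the second, and relative to the better expressed genes at -0.49 and -0.30. A change of scaling shifts all genes alike, so these distances are fixed by construction and are no test of stability.

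**Figure D2:**
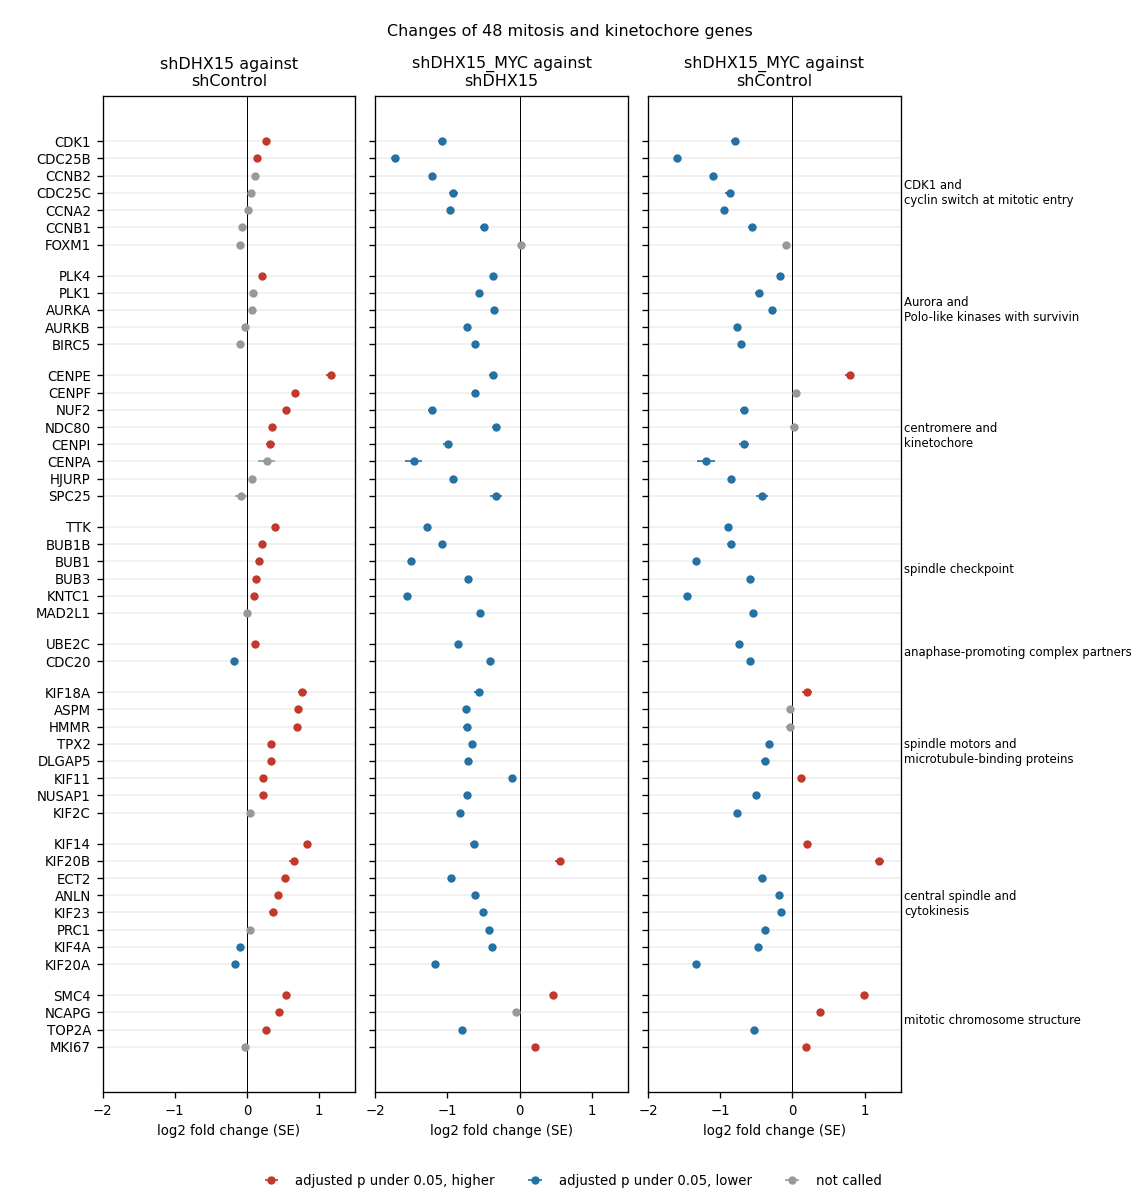
Log2 fold changes with their standard errors (SE) for the 48 mitotic genes, grouped by role, in the 3 comparisons; red is called higher, blue called lower and grey not called. Most points lie right of 0 in shDHX15 against shControl and left of 0 in both comparisons of shDHX15_MYC; with total-count scaling KIF11 and NCAPG cross to the other side in shDHX15_MYC against shDHX15, and FOXM1, PLK4, HMMR, ASPM, KIF23 and ANLN in shDHX15_MYC against shControl.

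The genes of mitotic entry hardly moved in the knockdown and fell with MYC. Of the 7 genes, 2 rose and none fell in shDHX15 against shControl, and 6 fell in each comparison of shDHX15_MYC. Among the better expressed genes 28.2% were called higher and 27.6% lower in the knockdown. With MYC 54.1% of them were called lower against shDHX15 and 53.9% against shControl. These shares belong beside the counts of every role below, each of which covers few genes. CDK1, the kinase that drives entry, was at 91.9, 89.3 and 86.1 CPM in shDHX15_MYC, 210.5, 173.2 and 178.2 in shDHX15 and 158.2, 152.1 and 155 in shControl. All 3 shDHX15 libraries were above all shControl libraries and all shDHX15_MYC libraries below them, with log2 fold changes of 0.27, -1.07 against shDHX15 and -0.80 against shControl (edgeR adjusted p = 0.000641, 5.67e-12 and 3.8e-10). The CDC25 phosphatases, which remove the inhibitory phosphates of CDK1, both fell with MYC. CDC25B had the lowest fold change of all 48 in both comparisons of shDHX15_MYC, at 142.1, 132.6 and 135.7 CPM in shDHX15_MYC, 418.1, 471.1 and 476.1 in shDHX15 and 415.9, 412.7 and 413.7 in shControl. Its 3 shDHX15_MYC libraries held less than any other library, a change of -1.73 (SE 0.0435, edgeR adjusted p = 2.78e-16) against shDHX15 and -1.60 (SE 0.0435, edgeR adjusted p = 7.73e-16) against shControl. Its rise of 0.14 in the knockdown (edgeR adjusted p = 0.0134) was not called without replicate 2 (0.11, edgeR adjusted p = 0.0692) or without replicate 3 of shDHX15 (0.10, edgeR adjusted p = 0.0646). CDC25C was at 16.6, 15.1 and 16.2 CPM in shDHX15_MYC, 30.9, 29.6 and 30.2 in shDHX15 and 27.1, 29.7 and 30.4 in shControl. It fell by 0.92 on the log2 scale against shDHX15 and was not called in the knockdown (0.06).

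Both B-type cyclins fell in each comparison of shDHX15_MYC, by different amounts. CCNB1, cyclin B1, was at 72, 73.3 and 78 CPM in shDHX15_MYC, 112.3, 101.6 and 101.8 in shDHX15 and 113.9, 109.3 and 107.4 in shControl. CCNB2, cyclin B2, was at 41.6, 41.7 and 45.5 CPM in shDHX15_MYC, 101, 101.6 and 95.5 in shDHX15 and 95, 88.7 and 92.9 in shControl. The fall with MYC against shDHX15 was -0.50 for CCNB1 and -1.21 for CCNB2 (edgeR adjusted p = 1.28e-08 and 5.51e-14), and neither was called in the knockdown (-0.07 and 0.11); CCNB2 was called there at 0.14 without replicate 3 of shDHX15 (edgeR adjusted p = 0.026). CCNA2, cyclin A2, fell to 101 ± 3.68 CPM in shDHX15_MYC, against 198 ± 3.72 in shDHX15 and 195 ± 3.05 in shControl. FOXM1, the forkhead activator of late cell cycle genes, was not called in any of the 3 comparisons. It stood at 155.9, 152.6 and 160 CPM in shDHX15_MYC, 143, 159 and 161.1 in shDHX15 and 165.1, 165.1 and 165.8 in shControl, with changes of -0.10 in the knockdown, 0.02 for shDHX15_MYC against shDHX15 and -0.08 against shControl (edgeR adjusted p = 0.0554, 0.712 and 0.0661). With total-count scaling FOXM1 was called higher in shDHX15_MYC against both groups (0.22 and 0.18), and without replicate 1 of shDHX15 it was called lower against shControl (-0.09, edgeR adjusted p = 0.00130).

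The mitotic kinases moved in the same way. Of AURKA, AURKB, PLK1, PLK4 and BIRC5, only PLK4 was called in the knockdown, and all 5 fell in both comparisons of shDHX15_MYC. AURKA, which matures centrosomes, was at 50.2, 50.3 and 48.5 CPM in shDHX15_MYC, 65.4, 61.7 and 63.4 in shDHX15 and 58.4, 61.7 and 61.4 in shControl. AURKB, the kinase of the chromosomal passenger complex that corrects attachments, was at 100.3, 100.5 and 106.1 CPM in shDHX15_MYC, 175.9, 166.9 and 165.9 in shDHX15 and 177.1, 170.7 and 172.5 in shControl. The fall with MYC against shDHX15 was -0.35 for AURKA and -0.73 for AURKB (edgeR adjusted p = 4.57e-07 and 2.22e-12), and the groups did not overlap for either. BIRC5, or survivin, belongs to the same complex as AURKB and fell by 0.62 on the log2 scale; without replicate 1 of shDHX15 it was also called lower in the knockdown (-0.14, edgeR adjusted p = 6.96e-05). PLK1, the Polo-like kinase of centrosomes, kinetochores and midbody, was at 75.5, 80.5 and 78.3 CPM in shDHX15_MYC, 107, 121.6 and 116.5 in shDHX15 and 105.9, 106.9 and 111.5 in shControl. PLK4, which starts centriole duplication, was at 73.2, 71.4 and 70.7 CPM in shDHX15_MYC, 98.3, 88.2 and 91.8 in shDHX15 and 82.9, 77 and 81.5 in shControl. PLK4 rose by 0.20 in the knockdown (edgeR adjusted p = 0.00104) and fell by 0.37 with MYC against shDHX15. Against shControl its change of -0.17 (edgeR adjusted p = 0.00232) turned to 0.10 with total-count scaling.

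Kinetochore genes split in the knockdown. Of 8 genes, 5 rose and 3 were not called, and all 8 fell with MYC against shDHX15. CENPE, the kinesin that carries chromosomes to the spindle middle, had the highest change of all 48 in the knockdown, and was at 41.7, 43.2 and 42.3 CPM in shDHX15_MYC, 59.6, 54 and 50.5 in shDHX15 and 24.3, 23.6 and 25.5 in shControl. Every shDHX15 library held more than every shControl library, and the shDHX15_MYC libraries lay in between. The changes were 1.16 (SE 0.0589, edgeR adjusted p = 2.17e-10) in the knockdown, -0.37 (SE 0.0564, edgeR adjusted p = 1.09e-05) for shDHX15_MYC against shDHX15 and 0.79 (SE 0.0595, edgeR adjusted p = 9.37e-10) against shControl. The fall against shDHX15 was not called with offsets for GC content and length (-0.07, edgeR adjusted p = 0.14). CENPF, a large outer kinetochore protein, was at 151.7, 156.6 and 157 CPM in shDHX15_MYC, 243.4, 241.2 and 228.8 in shDHX15 and 149.2, 152.3 and 146.3 in shControl. Its change of 0.67 (edgeR adjusted p = 1.72e-10) in the knockdown was followed by one of -0.62 with MYC, and the shDHX15_MYC and shControl libraries overlapped (0.06).

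The NDC80 complex, which holds microtubule ends, did not move as a unit. NUF2 was at 31.7, 31.9 and 34.2 CPM in shDHX15_MYC, 80.5, 74.3 and 72.4 in shDHX15 and 51.6, 50.7 and 53.7 in shControl. NDC80 was at 52.8, 58.2 and 54.1 CPM in shDHX15_MYC, 71.2, 65.4 and 71.5 in shDHX15 and 54.1, 55.6 and 53.6 in shControl. SPC25 was at 23.5, 25.4 and 28.3 CPM in shDHX15_MYC, 36.8, 27.9 and 32.7 in shDHX15 and 33.4, 33.9 and 35.8 in shControl. In the knockdown NUF2 rose by 0.54 and NDC80 by 0.35 (edgeR adjusted p = 1.41e-07 and 1.55e-05), and SPC25 was not called (-0.08); without replicate 1 of shDHX15 SPC25 was called lower (-0.19, edgeR adjusted p = 0.0208). With MYC, NUF2 fell by 1.22 against shDHX15, and NDC80 and SPC25 by 0.33 each; the SPC25 libraries overlapped and its call was lost with total-count scaling (-0.13, edgeR adjusted p = 0.148). RGS5 overlaps NUF2 on the opposite strand; without strand, which the sources used here do not give for the counting, reads of overlapping genes cannot be told apart.

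CENPA, the histone variant that marks centromeres, was at 15.1, 15.2 and 13.5 CPM in shDHX15_MYC, 31.4, 39.7 and 50.5 in shDHX15 and 32.4, 35.5 and 32.8 in shControl. Its shDHX15 libraries were spread widely and overlapped shControl, and the knockdown change of 0.27 (edgeR adjusted p = 0.0601) was called at 0.42 without replicate 1 (edgeR adjusted p = 2.35e-06). With MYC all 3 libraries were lower than any other library, a change of -1.47 against shDHX15 and -1.20 against shControl (edgeR adjusted p = 3.02e-09 and 5.98e-08). The annotation places SLC35F6 over CENPA on the same strand. HJURP, the chaperone that loads CENPA, fell to 96.2 ± 1.77 CPM with MYC, against 183 ± 1.45 in shDHX15 and 174 ± 1.93 in shControl. CENPI, an inner kinetochore protein, rose by 0.33 in the knockdown and fell by 1.00 with MYC against shDHX15.

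Spindle checkpoint genes rose slightly in the knockdown and were among those that fell most with MYC. Of 6 genes, 5 rose in the knockdown, by 0.09 to 0.39 on the log2 scale. All 6 fell in both comparisons of shDHX15_MYC. Of the better expressed genes, 54.1% were called lower against shDHX15 and 53.9% against shControl. Against shDHX15, 4 of the 6 fell more than 2-fold, a count with no background share. TTK, the MPS1 kinase that starts the checkpoint signal, was at 35.5, 36.1 and 33.9 CPM in shDHX15_MYC, 90.3, 81.5 and 84.4 in shDHX15 and 67, 63.7 and 65.2 in shControl. KNTC1, or ROD, which brings dynein and MAD proteins to kinetochores, was at 117.5, 116.4 and 115.9 CPM in shDHX15_MYC, 363.6, 339.3 and 330.2 in shDHX15 and 316.6, 326.7 and 324.1 in shControl. BUB1, a checkpoint kinase and scaffold, was at 71.5, 75.1 and 72.7 CPM in shDHX15_MYC, 217.8, 206.2 and 197.8 in shDHX15 and 181, 188.3 and 183.6 in shControl. In all 3 the shDHX15_MYC libraries lay far below both other groups, with changes against shDHX15 of -1.28, -1.56 and -1.50 (edgeR adjusted p = 3.9e-14, 8.6e-17 and 3.67e-16). In the knockdown TTK rose by 0.39 (edgeR adjusted p = 2.71e-06) and BUB1 by 0.17 (edgeR adjusted p = 0.00123). The rise of KNTC1 by 0.09 (edgeR adjusted p = 0.0334) was lost without replicate 1 of shDHX15 (0.05, edgeR adjusted p = 0.0658) or without any single shControl library (0.08 to 0.10), and turned to -0.07 with offsets for GC content and length. BUB1B, or BUBR1, the inhibitor of the anaphase-promoting complex, was at 68.7, 71 and 74 CPM in shDHX15_MYC, 159, 143.8 and 145.8 in shDHX15 and 127.6, 130.2 and 129.3 in shControl; the readthrough gene BUB1B-PAK6 overlaps it on the same strand. BUB3, which carries both to kinetochores, rose by 0.13 and turned to -0.02 with the same offsets. MAD2L1, the MAD2 protein, was not called in the knockdown (0.01) and fell by 0.55 with MYC.

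The partners of the anaphase-promoting complex differed from each other in the knockdown. CDC20, its activator and the target of the checkpoint, was at 85.4, 85.8 and 85.7 CPM in shDHX15_MYC, 113.5, 114.7 and 113.2 in shDHX15 and 128.3, 130.8 and 127.5 in shControl. Its fall of -0.18 in the knockdown (log2 scale, SE 0.0314, edgeR adjusted p = 0.000187) was the lowest change of all 48, and it fell again with MYC (-0.41 against shDHX15, edgeR adjusted p = 1.5e-09). No library of 1 group overlapped those of another. UBE2C, the ubiquitin-conjugating enzyme of the complex, rose by 0.11 in the knockdown and fell by 0.85 with MYC (edgeR adjusted p = 0.00977 and 1.39e-13).

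Among spindle motors and microtubule-binding proteins, 7 of 8 rose in the knockdown and all 8 fell with MYC against shDHX15. KIF18A, the kinesin that dampens chromosome movement, was at 18.3, 17.8 and 20.1 CPM in shDHX15_MYC, 28.5, 26.4 and 28.5 in shDHX15 and 16.7, 15.5 and 16.7 in shControl. ASPM, the spindle pole protein whose loss gives microcephaly, was at 131.7, 131.1 and 127.7 CPM in shDHX15_MYC, 232.2, 212.8 and 209.9 in shDHX15 and 138.3, 128.7 and 132 in shControl. Both rose in the knockdown, by 0.77 (SE 0.0661) and 0.71 (SE 0.0402; edgeR adjusted p = 9.13e-08 and 6.68e-10). With MYC they fell again by 0.57 and 0.75. HMMR, a spindle protein and hyaluronan receptor, rose by 0.70 and fell by 0.74. ASPM and HMMR in shDHX15_MYC overlapped shControl (-0.03 and -0.04, not called) and were called higher with total-count scaling (0.23 each). KIF18A stayed above shControl (0.20, edgeR adjusted p = 0.0115), a call lost without replicate 3 of shDHX15_MYC (0.14) or replicate 2 of shControl (0.16); METTL15 overlaps it on the opposite strand. KIF11, the motor that separates spindle poles, changed by 0.23 in the knockdown (0.04 and not called with offsets for GC content and length) and by -0.11 with MYC, which turned to 0.09 with total-count scaling. TPX2, DLGAP5 and NUSAP1 rose by 0.22 to 0.33 in the knockdown and fell by 0.66 to 0.73 with MYC. KIF2C, a microtubule depolymerase, was not called in the knockdown (0.05) and fell by 0.82 with MYC.

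Among the cytokinesis genes were both rises and falls. Of 8 genes, 5 rose and 2 fell in the knockdown, and 7 fell and 1 rose with MYC against shDHX15. KIF14, a motor of the midbody, was at 43.5, 46 and 43.2 CPM in shDHX15_MYC, 69.9, 68.2 and 68.6 in shDHX15 and 38.5, 39.4 and 37.6 in shControl. KIF20A, or MKLP2, which brings AURKB to the central spindle, was at 32.2, 32 and 33.8 CPM in shDHX15_MYC, 74.7, 73.7 and 72.7 in shDHX15 and 81.5, 81.4 and 84.9 in shControl. KIF20B, or MPP1, a related motor of late cytokinesis, was at 64.4, 63.7 and 56.8 CPM in shDHX15_MYC, 45.5, 41.7 and 38.7 in shDHX15 and 25.8, 26.9 and 27.5 in shControl. KIF20A and KIF20B moved in opposite directions in all 3 comparisons, and neither had groups that overlapped. KIF20B rose by 0.65 in the knockdown, by 0.56 with MYC against shDHX15 and by 1.20 against shControl (edgeR adjusted p = 4.01e-07, 1.51e-07 and 6.16e-12). KIF20A fell by 0.17, 1.17 and 1.34 in the same comparisons (edgeR adjusted p = 0.00236, 2.24e-14 and 4.04e-15); BRD8 and CDC23 overlap it on the opposite strand. KIF14 changed by 0.84 (edgeR adjusted p = 2.49e-10) in the knockdown, -0.64 with MYC and 0.20 against shControl.

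KIF4A, the chromokinesin that shortens the central spindle with PRC1, was at 62, 64.8 and 66.4 CPM in shDHX15_MYC, 84.3, 81.8 and 85.5 in shDHX15 and 90.6, 87.2 and 91.8 in shControl. It fell by 0.38 with MYC against shDHX15, and its fall of 0.10 in the knockdown (edgeR adjusted p = 0.0463) was not called under total-count scaling (-0.03) or without 1 of several libraries, among them replicate 2 of shDHX15 (-0.09, edgeR adjusted p = 0.128). ECT2, which activates RhoA at the division plane, rose by 0.52 in the knockdown and fell by 0.95 with MYC. ANLN, or anillin, rose by 0.43 and fell by 0.62, and KIF23, the centralspindlin motor, rose by 0.35 and fell by 0.51. Both stood below shControl with MYC (-0.19 and -0.15), and above it with total-count scaling (0.08, not called, and 0.11). PRC1, the microtubule bundler, was not called in the knockdown and fell by 0.43 with MYC.

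Of the 4 genes of mitotic chromosome structure, 3 rose in the knockdown, and with MYC against shDHX15 2 rose and 1 fell. SMC4, the core ATPase of condensin, was at 377.9, 399 and 367.7 CPM in shDHX15_MYC, 287.4, 268.2 and 278.5 in shDHX15 and 194.8, 188.6 and 192.1 in shControl. MKI67, the Ki-67 surfactant of chromosomes and common proliferation marker, was at 757, 765.7 and 778.1 CPM in shDHX15_MYC, 654.9, 683 and 639.8 in shDHX15 and 676.9, 672.3 and 667.4 in shControl. NCAPG, the condensin I subunit, was at 129, 130.5 and 124.8 CPM in shDHX15_MYC, 136.6, 132.5 and 130.5 in shDHX15 and 98.4, 97 and 98.7 in shControl. SMC4 rose in every comparison, by 0.54 in the knockdown, 0.46 with MYC against shDHX15 and 0.99 against shControl (edgeR adjusted p = 4.9e-09, 1.42e-09 and 3.54e-14); IFT80 and TRIM59 overlap it on the opposite strand. MKI67 was not called in the knockdown (-0.03) and rose by 0.22 with MYC (edgeR adjusted p = 1.66e-06). NCAPG rose by 0.44 in the knockdown (edgeR adjusted p = 2.13e-08), was not called with MYC against shDHX15 (-0.06; 0.14 and called with total-count scaling) and stayed 0.39 above shControl (edgeR adjusted p = 7.67e-09); LCORL overlaps it on the opposite strand. TOP2A, which untangles sister DNA, rose by 0.27 and fell by 0.79 with MYC against shDHX15.

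**Figure D3:**
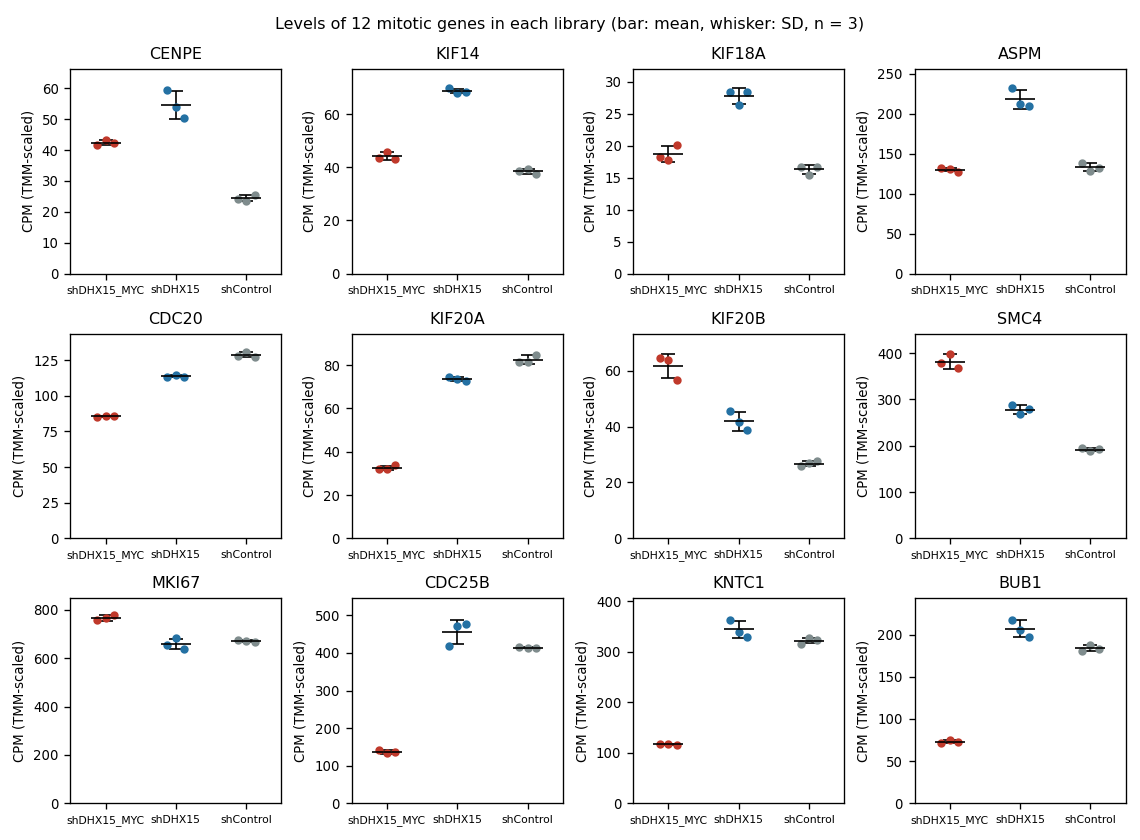
TMM-scaled CPM of 12 mitotic genes in each library of shDHX15_MYC, shDHX15 and shControl; points are libraries, bars the mean and whiskers the SD of 3. In CENPE, KIF14, KIF18A and ASPM the shDHX15 libraries are highest, in CDC20 and KIF20A the shControl libraries, and in KIF20B, SMC4 and MKI67 the shDHX15_MYC libraries; in CDC25B, KNTC1 and BUB1 the shDHX15_MYC libraries lie below both other groups.

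Over the 3 calls of each gene, 18 of the 48 were higher in the knockdown and lower with MYC against both other groups, and 14 were not called in the knockdown and lower with MYC against both. In 4 (CENPF, NDC80, ASPM and HMMR) the rise in the knockdown was followed by a fall and no call against shControl, and in 4 (CENPE, KIF11, KIF18A and KIF14) by a fall that left them above shControl. CDC20, KIF20A and KIF4A were lower in all 3 comparisons, and KIF20B and SMC4 higher in all 3. NCAPG was higher in the knockdown and against shControl, MKI67 higher in both comparisons of shDHX15_MYC, and FOXM1 was the only one with no call. The comparisons share libraries, so the direction of one bears on the next. These patterns were not counted over all genes, so no background share stands beside them and they are a description of the 48 only.

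Per kilobase of transcript, which lets levels of different genes be set side by side, UBE2C was highest of the 48 in all groups, at 102.9 CPM per kilobase in shDHX15_MYC, 185.3 in shDHX15 and 171.2 in shControl. CENPE was lowest in shDHX15, at 6.35, and in shControl, at 2.84, and CENPI was lowest in shDHX15_MYC, at 4.26. The 5 lowest in shControl were CENPE, KIF20B, KIF18A, KIF14 and CENPI. Each of them rose in the knockdown, as did 29 of the 48 in all. The same shControl libraries enter both the rank and the rise, so rank and rise are not independent.

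Ratios of 2 genes within a library need no scaling between libraries. They were not adjusted for GC content or length, in which some pairs differ. Transcript GC is 48.4% in KIF20A and 34.2% in KIF20B, and 57.3% in PLK1 and 38.4% in PLK4. In other pairs it is close, as in BUB1 and BUB1B (42.9% and 43.4%). The log2 count ratio of KIF20A to KIF20B was -1.0, -0.99 and -0.75 in shDHX15_MYC, 0.72, 0.82 and 0.91 in shDHX15 and 1.66, 1.59 and 1.62 in shControl. No group overlapped another, and KIF20A had the more counts in shDHX15 and shControl and KIF20B in shDHX15_MYC. The ratio of CCNB1 to CCNB2 was 0.79, 0.81 and 0.78 in shDHX15_MYC, 0.15, 0.00 and 0.09 in shDHX15 and 0.26, 0.30 and 0.21 in shControl, and that of CDC25B to CDC25C 3.10, 3.13 and 3.07 in shDHX15_MYC, 3.76, 3.99 and 3.98 in shDHX15 and 3.94, 3.80 and 3.77 in shControl. With MYC the balance stood further toward CCNB1 and away from CDC25B than in either other group. The ratio of BUB1 to BUB1B was 0.06, 0.08 and -0.03 in shDHX15_MYC, 0.45, 0.52 and 0.44 in shDHX15 and 0.50, 0.53 and 0.51 in shControl, and that of AURKA to AURKB -1.0, -1.0 and -1.13 in shDHX15_MYC, -1.43, -1.44 and -1.39 in shDHX15 and -1.60, -1.47 and -1.49 in shControl. For PLK1 to PLK4 the ratio was 0.05, 0.17 and 0.15 in shDHX15_MYC, 0.12, 0.46 and 0.34 in shDHX15 and 0.35, 0.47 and 0.45 in shControl; the shDHX15 libraries overlapped both other groups, and shDHX15_MYC lay below shControl with no overlap. Of 3 pairs added after their values had been seen, NUF2 to NDC80 stood at a mean of -0.75 in shDHX15_MYC, 0.13 in shDHX15 and -0.07 in shControl, SPC25 to NDC80 at -1.10 in shDHX15_MYC, -1.10 in shDHX15 and -0.66 in shControl, and NCAPG to SMC4 at -1.58 in shDHX15_MYC, -1.06 in shDHX15 and -0.97 in shControl. Between 3 and 3 libraries an exact permutation test cannot give a p below 0.1, so none is given.

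**Figure D4:**
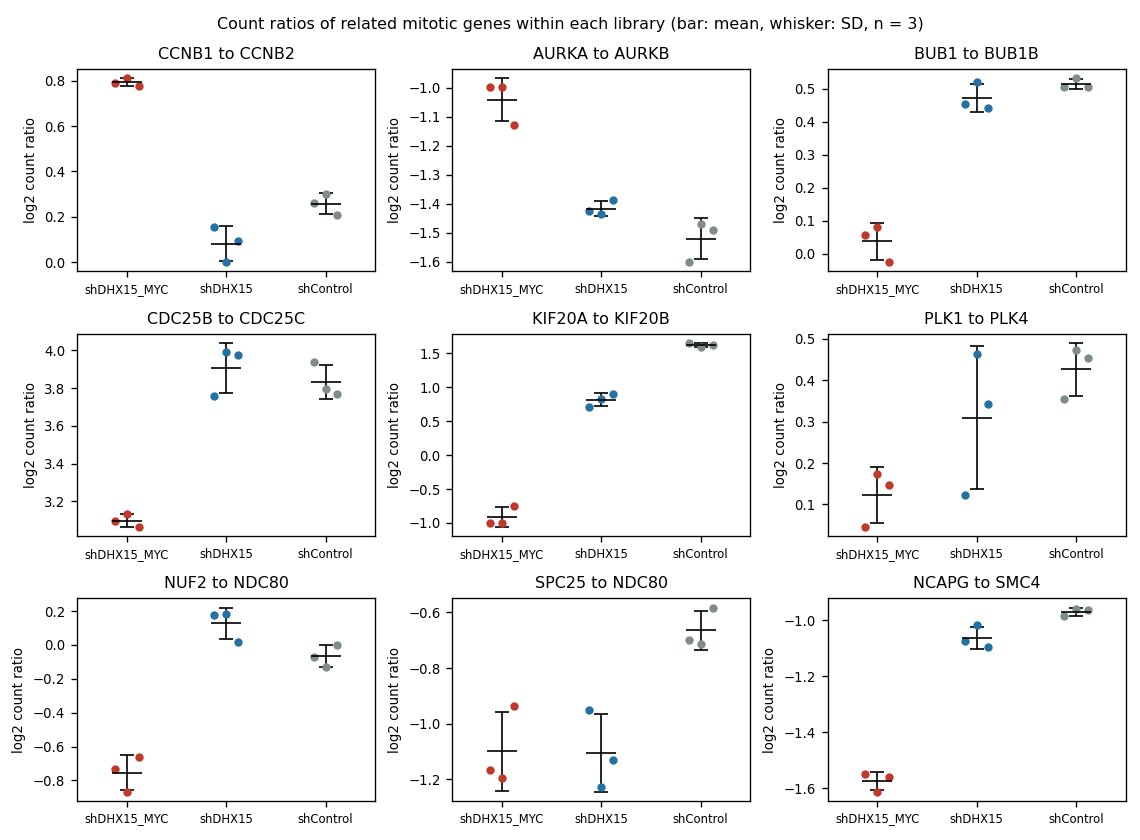
Log2 ratios of counts of 2 mitotic genes within each library of shDHX15_MYC, shDHX15 and shControl; points are libraries, bars the mean and whiskers the SD of 3, and each panel has its own scale. The ratio of KIF20A to KIF20B is below 0 in all shDHX15_MYC libraries and above 0 in all others.

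In the knockdown, most of the genes that rose had AT-rich transcripts. Over the 48, Spearman's rho of the log2 fold change with the GC content of the transcript was -0.74, given as a description across genes, which are not independent and share all libraries. Over 9795 better expressed protein-coding genes, the 48 among them, it was -0.21. Of 17 mitotic genes with under 40% GC, 16 rose (94.1%), with a median of 0.52, against 56.3% of 1440 genes in that band, with a median of 0.18. From 40% to 45% GC, 10 of 13 rose (76.9%), against 33.3% of 2091 genes. From 45% to 50%, 1 of 10 rose (TPX2), against 21.7% of 1689 genes, and from 50% up 2 of 8 (CDC25B and UBE2C), against 20.5% of 4575. The members' transcripts had a median GC of 41.8%, against 48.8% for the 9795 genes, and more exons (a median of 17 against 10).

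GC content went with other features of these genes. Spearman's rho with the change in the knockdown was 0.40 for transcript length, 0.46 for coding length and 0.53 for the number of exons, and GC itself ran with these at -0.42 to -0.48, so that they cannot be separated in 48 genes. For shDHX15_MYC against shDHX15, rho with GC was -0.11 over the 48, and for shDHX15_MYC against shControl -0.47. Taken library by library against the shControl mean, rho over the 48 was -0.85, -0.65 and -0.67 in shDHX15 replicates 1, 2 and 3. Over all 9795 genes it was -0.43 in replicate 1, the library that stands apart, and -0.10 in each of the other 2. The slopes over the 48 were -0.38, -0.27 and -0.27 log2 units per 10 points of GC in these shDHX15 libraries, against at most 0.02 in size for each shControl library set against the other 2, where rho was -0.32, 0.37 and -0.01.

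Without replicate 1 of shDHX15, rho over the 48 was -0.68, 32 of the 48 were called higher and 6 lower, and the median was 0.17. With offsets for GC content and length, fitted on the better expressed genes found in the annotation, 33 were called higher and 6 lower, with a median of 0.15. With these offsets AURKB was called higher at 0.13 and MAD2L1 lower at -0.16. What sets the relation with GC was not tested.

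**Figure D5:**
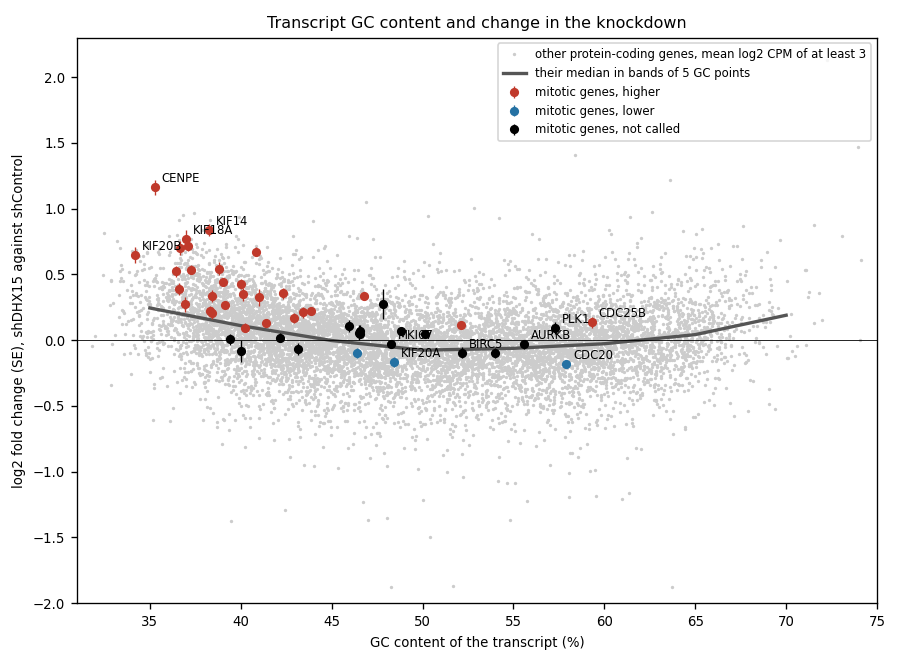
Log2 fold change in shDHX15 against shControl (vertical axis, with SE for the 48 mitotic genes) by GC content of the transcript in percent. Grey points are protein-coding genes (mean log2 CPM at least 3), and the line is their median in bands of 5 GC points. Although labelled as other genes, the grey points and the line include the 48. Of the 17 mitotic genes under 40% GC, 16 are red (called higher), with CENPE at 1.16 the highest; CDC20, KIF20A and KIF4A are blue (called lower).

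By promoter letters, given as a description with no test, the median log2 fold change in the knockdown was 0.27 in the 33 genes with a CHR and 0.02 in the 7 without it. Only TTTGAA and TTCGAA were searched as the CHR, so genes counted as without it lack these letters in their windows and no more. It was 0.17 in the 31 genes with CCAAT and 0.43 in the 9 without it, and 0.43 in the 5 with an E-box and 0.22 in the 35 without it. With MYC against shDHX15 the medians were -0.62 with the CHR and -0.82 without it, and -0.72 with CCAAT and -0.62 without it. The 5 genes with an E-box had a median of -0.56 in that comparison, and the 35 without it -0.73.

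Other mitotic genes, a list of 73 genes without the 48, had medians of the same signs. In the knockdown 36 rose and 12 fell (median 0.08), against 22% called higher and 23% lower over all genes. With MYC 6 rose and 56 fell against shDHX15 (median -0.58), where 42.1% of all genes were called higher and 42.6% lower. Against shControl 10 rose and 56 fell (median -0.47), with 42% called higher and 42.5% lower over all genes. Among the better expressed genes, 33.6% were called higher and 54.1% lower against shDHX15, and 34.2% and 53.9% against shControl. Without replicate 1 of shDHX15, 19 of the 73 were called lower in the knockdown. SPC24, the partner of SPC25, fell to 18.2 ± 1.03 CPM in shDHX15_MYC, against 72.8 ± 3.54 in shDHX15 and 72.8 ± 0.795 in shControl. SGO2, a protector of cohesin, and CASC5, the KNL1 scaffold of the kinetochore, rose most in the knockdown, by 0.58 and 0.57, and CENPW and CENPN fell most, by 0.53 and 0.40. PSRC1 fell by 2.27 with MYC against shDHX15, and MIS12, a linker of the outer kinetochore, rose by 0.71 (edgeR adjusted p = 1.39e-16 and 1.87e-10).

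A list of 16 genes held subunits of the anaphase-promoting complex and its partners UBE2S and FZR1. Of these 16, 5 rose and 9 fell in the knockdown. With MYC 8 rose and 8 fell against shDHX15, and 7 rose and 7 fell against shControl. With MYC against shDHX15, CDC26 rose by 1.13 and ANAPC7 by 0.76, and ANAPC15 fell by 1.18 and ANAPC16 by 1.07. Among 23 regulators of mitotic gene transcription, 5 rose and 8 fell in the knockdown. With MYC 8 rose and 11 fell against shDHX15, and 5 rose and 11 fell against shControl. The shares over all genes, to set beside both lists, were 22% called higher and 23% lower in the knockdown. They were 42.1% and 42.6% with MYC against shDHX15, and 42% and 42.5% against shControl. Among the better expressed genes the shares were 28.2% higher and 27.6% lower in the knockdown. With MYC they were 33.6% and 54.1% against shDHX15, and 34.2% and 53.9% against shControl. CDKN1A, the CDK inhibitor p21, was at 667.7, 661.3 and 670.5 CPM in shDHX15_MYC, 105.1, 124.6 and 125 in shDHX15 and 114.2, 116.3 and 110.4 in shControl. All 3 libraries with MYC stood above every other library, at 2.49 over shDHX15 on the log2 scale (SE 0.0509, edgeR adjusted p = 1.95e-17). MYBL2, which encodes B-MYB, rose by 0.86, RBL2, the p130 protein of DREAM, fell by 2.27 and TFDP2, an E2F partner, fell by 2.29.

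Markers of the line and of other cell types also moved with MYC. Over all genes, 42.1% were called higher and 42.6% lower with MYC against shDHX15, and 42% and 42.5% against shControl. In the knockdown 22% of all genes were called higher and 23% lower. Of 15 markers of T-ALL lines, 14 were called lower in shDHX15_MYC against each other group and 11 lower in the knockdown; their summed level was 1998 to 2033 CPM in shDHX15_MYC, 3346 to 3551 in shDHX15 and 4285 to 4393 in shControl. DNTT, the terminal transferase of immature lymphocytes, averaged 1.83 ± 0.372 CPM in shDHX15_MYC, 50 ± 1.21 in shDHX15 and 98 ± 2.37 in shControl. B-cell markers (7 of 8 matched, 5 of these under 1 CPM in every library) summed to 105.7 to 109.8 CPM in shDHX15_MYC, 46.6 to 49.4 in shDHX15 and 51.1 to 53.5 in shControl; CD79A averaged 99.9 CPM in shDHX15_MYC and 37.4 in shDHX15, and CD79B 5.76 in shDHX15_MYC, 9.52 in shDHX15 and 11.6 in shControl. Of 5 tested, 3 were called higher and 1 lower with MYC against shDHX15. Myeloid markers (6 of 10 matched) summed to 7.25 to 8.89 CPM in shDHX15_MYC, 0.623 to 0.869 in shDHX15 and 0.708 to 1.31 in shControl, all 4 tested were called higher with MYC against each other group, and CSF1R was at 0 in all shDHX15 libraries. Markers of adherent and packaging cells (12 of 12) summed to 659 to 684 CPM in shDHX15_MYC. The sum was 566 to 643 in shDHX15 and 1269 to 1276 in shControl, most of it VIM. VIM fell by 1.07 already in the knockdown and stood 1.03 below shControl in shDHX15_MYC. It averaged 609 CPM in shDHX15_MYC, 594 in shDHX15 and 1245 in shControl. Of 9 of these markers tested, 8 were called higher and none lower with MYC against shDHX15, with a median of 1.56. Against shControl 8 were called higher and 1, VIM, lower, with a median of 1.13. YAP1 averaged 9.36 ± 0.637 CPM in shDHX15_MYC, 1.48 ± 0.0878 in shDHX15 and 1.48 ± 0.389 in shControl. No marker found in the count table was at 0 in all libraries. MS4A1, ELANE, FCGR3A, S100A8 and S100A9 were not found in it, so their levels are not known. The part of these shifts in the fall of the mitotic genes was not tested.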

How the data were processed

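RNA of 9 KOPTK1 libraries (3 groups of 3) was poly(A)-selected and read from both ends for 150 bp, per the labels' protocols. The authors deposited 1 table of raw read counts, whole numbers for 17637 genes. FastQC 0.11.9, HISAT2 2.2.1, DESeq2 1.32.0 and hg38 are named in the submitters' processing notes; which program counted reads, with which strand setting, is not given in the sources used. Columns were joined to samples by name: those with a GFP hairpin were taken as shControl, those with a numbered hairpin as shDHX15_MYC or shDHX15.

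Genes kept by filterByExpr (15309) were scaled by TMM factors and fitted with the quasi-likelihood model of edgeR 4.0.16 (R 4.3.3, limma 3.58.1) over all 9 libraries. The 3 comparisons were 2-sided, with Benjamini-Hochberg adjustment over every gene tested. At 42134302 to 59688062 counts a library, 3 counts correspond to 0.0519 to 0.0708 CPM, a limit for counting error only. The steps were tested on simulated data in which a small random set of genes was changed, equally up and down. For the knockdown (15074 genes), recovery was 46% at 1.25-fold, 74% at 1.5-fold, 88% at 2-fold and 96% at 4-fold, and 8 unchanged genes were called. Many more genes were called in the real comparisons, so these percentages need not hold for them.

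The 48 genes, their 8 roles and 8 other lists were chosen with earlier results of these data known. Values in every library are given for the 4 highest and 4 lowest called changes of each comparison, for the called gene of each role with the smallest adjusted p in the knockdown, and for 6 pairs of related genes; other lists have up to 2 called genes named in each direction. GC content, length and overlaps come from GENCODE release 29 (GRCh38), which matched 95.1% of symbols. Of the 48 genes, 14 overlap another gene of the table, 12 of them on the opposite strand. Alternatives were other scalings, DESeq2 1.42.0, other filters, only the 2 groups compared, a replicate block, thinning, leaving out each library and, added after the data had been seen, single-locus genes and offsets for GC content and length.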

Additional observations from a re-analysis of the deposited data

How the results depend on the processing

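The median of the 48 genes kept its direction in each comparison under every alternative run. In the knockdown, the median of the 48 genes was 0.28 with total-count scaling and 0.15 with offsets for GC content and length. The number of mitotic genes called lower there was 5 with upper-quartile factors, 6 without replicate 1 of shDHX15 and 6 with the offsets; leaving out each library in turn gave 28 to 32 called higher and 2 to 6 lower, with medians of 0.17 to 0.21. Of the 73 other mitotic genes, 5 were called lower with total-count scaling, and 34 to 36 higher and 9 to 19 lower when 1 library was left out, 19 of them without replicate 1 of shDHX15.

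For shDHX15_MYC against shDHX15, the median of the 48 was -0.49 with total counts, -0.51 with upper-quartile factors, -0.50 with only genes of mean log2 CPM 3 or more and -0.48 with the offsets; 6, 5, 6 and 6 of the 48 and 16, 16, 16 and 17 of the other mitotic genes were then called higher. Leaving out a library gave 42 to 43 called lower, 3 called higher in each case, and medians of -0.70 to -0.68; of the other mitotic genes 6 to 8 were then called higher and 55 to 56 lower. KIF11 turned to 0.0891, 0.0686, 0.0807 and 0.11 under these 4 settings and NCAPG to 0.14, 0.12, 0.13 and 0.15.

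For shDHX15_MYC against shControl, the median of the 48 was -0.23 with total counts, -0.46 with RLE factors or DESeq2, -0.33 with upper-quartile factors, -0.29 with only genes of mean log2 CPM 3 or more, -0.46 after thinning and -0.32 with the offsets. With total counts 15 of the 48 and 21 of the other mitotic genes were called higher, and with that filter 13 and 18. Leaving out a library gave 7 to 8 called higher and 35 to 36 lower, with medians of -0.51 to -0.49, and 9 to 10 higher and 55 to 58 lower of the other mitotic genes. With total counts, upper-quartile factors and that filter, values turned positive for PLK4 (0.10, 0.00114 and 0.0395), HMMR (0.23, 0.13 and 0.17), ASPM (0.23, 0.14 and 0.17) and KIF23 (0.11, 0.0137 and 0.0519); FOXM1 did so with total counts, that filter and the offsets (0.18, 0.12 and 0.15) and ANLN with total counts and that filter (0.0782 and 0.0182). In the knockdown the offsets turned AURKB to 0.13, BUB3 to -0.0152, MAD2L1 to -0.16 and KNTC1 to -0.0730. For the scalings, the shift of the median of all genes accompanies these turns; for the offsets the cause was not tested.

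Libraries of the same number did not deviate together (r from -0.0914 to 0.097), so the numbers were not taken to pair them. With a replicate block 29 of the 48 were called higher and 4 lower in the knockdown, 3 higher and 43 lower for shDHX15_MYC against shDHX15, and 8 higher and 35 lower against shControl; FOXM1 was the gene added (-0.10).

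With 3 libraries a group, 1 cell line and 1 hairpin, the p-values cover only these libraries. Changes near 0.1 on the log2 scale in the knockdown, such as those of KIF4A, KNTC1 and CDC25B, were not called when single libraries were left out.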

Other observations

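Genes of the G1/S step and of DNA replication were a list of 50, all of them tested. In shDHX15 against shControl 9 rose and 11 fell, with a median log2 fold change of -0.01; over all genes 22% were called higher and 23% lower. GINS1, of the replicative helicase, rose by 0.71 (edgeR adjusted p = 3.93e-10) to 113 ± 4.48 CPM in shDHX15, against 69.2 ± 0.939 in shControl, and CCNE1, cyclin E1, rose by 0.48. PCNA, the sliding clamp, fell by 0.36 and ORC1, of the origin recognition complex, by 0.34.

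In shDHX15_MYC against shDHX15, 11 of the 50 rose and 32 fell (median -0.30), and against shControl 12 rose and 34 fell (median -0.32). Over all genes 42.1% were called higher and 42.6% lower against shDHX15, and 42% higher and 42.5% lower against shControl. Among the better expressed genes 33.6% were called higher and 54.1% lower against shDHX15, and 34.2% and 53.9% against shControl. The medians of these better expressed genes were -0.20 against shDHX15 and -0.19 against shControl. PRIM1, the primase subunit, was at 29.1, 32 and 29.2 CPM in shDHX15_MYC, 83.6, 74.4 and 79.4 in shDHX15 and 85.4, 82.2 and 84.9 in shControl. All 3 libraries with MYC held less PRIM1 RNA than any other library, and it fell by 1.39 against shDHX15. GINS3 rose by 1.30 and TIPIN, a fork protection protein, by 1.20, and CDC6, the licensing factor, averaged 243 ± 8.77 CPM in shDHX15_MYC, against 110 ± 3.5 in shControl, a rise of 1.14 (edgeR adjusted p = 8.23e-15).

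UBE2S, the chain-elongating enzyme of the anaphase-promoting complex, was at 242, 251.4 and 260.3 CPM in shDHX15_MYC, 133.6, 160.8 and 233.6 in shDHX15 and 122.2, 126.9 and 128.4 in shControl. The shDHX15 libraries were spread over most of the range between the other 2 groups.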
